A study of Rattus norvegicus with 6 samples.

Results

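The tags described here are the shortest sequences that the deposited count table lists as predicted, unannotated rat miRNAs. They were taken as every line whose name marks it as a prediction and whose mature sequence is 19 nt or shorter, with 1 line kept for each different sequence and a blank taken as a count of 0. This gave 76 of the 417 different sequences in the table, under 99 names. The other sequences were 124 predicted tags of 20 nt or more and 217 annotated miRNAs. Of the 76 tags, 20 were 17 nt long, 38 were 18 nt and 18 were 19 nt, and no sequence in the table was shorter than 17 nt.

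Small RNA came from extracellular vesicles of dedifferentiated fat (DFAT) cells of Sprague-Dawley rats, which are fat cells that lose their lipid when kept under the ceiling of a culture flask. The 3 libraries of the 0 d group came from cells before induction, and the 3 of the 14 d group from cells held for 14 d in osteogenic induction medium, with vesicles collected by ultracentrifugation in both. No genetic change is named for either group, and the sources used here give neither the age of the rats nor whether replicates came from separate cultures. Any p-value therefore reflects the scatter of these libraries alone, which may be technical. The tissue is labelled as adipose, and tags of small RNA hold no marker genes of a cell type against which that label could be checked.

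A miRNA is cut from a hairpin precursor by the nucleases Drosha and Dicer, loaded into an Argonaute protein and guided to messenger RNAs mainly by its seed, the bases 2 to 8 from the 5′ end. Programs that predict miRNAs look for stacks of reads on a genome stretch that could fold into such a hairpin. Vesicles also carry pieces of other RNAs, and reads of very short length fit more places in a genome by chance than longer ones do.

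The 10 most abundant tags, ranked by their mean share of counts over the 6 libraries, held 97.0% of the 18795 counts of all 76 and are shown because the results rest on them. Bases 2 to 8 are in capitals, each sequence runs 5′ to 3′, and the tags are called by their rank from here on.
Tag 1: aGUUCUGUggggugugc
Tag 2: aUCUCGGUgggaccucca
Tag 3: gGGGCUGGagagauggc
Tag 4: aGGGCUGGagagauggc
Tag 5: aUCUCGCUggggccucc
Tag 6: aGGGAGGCucuggaggc
Tag 7: aAGGAUGGcugauuuuagc
Tag 8: cGCGGGCGgggccggggg
Tag 9: aGGAAGCUguucugaggg
Tag 10: aGACUGAGcacgagaggc
The deposited names place tags 1, 5 and 6 on chromosome 1, tags 2 and 10 on chromosome 4, tag 7 on chromosome 16, tag 8 on chromosome 9 and tag 9 on chromosome 3. Tags 3 and 4 carry several names each. Start and end positions and the genes around them were not analysed here, as no genome of the files' build was used. Among the 10, tags 3 and 4 share 1 seed, and the other 8 each have a seed of their own.

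Library totals, each sequence counted once, ran from 120766 to 164424 counts at 0 d and from 58730 to 73236 at 14 d. Scaling factors by the trimmed mean of M values (TMM), which adjust for libraries whose most abundant sequences take up different shares, were 1.34 to 1.38 at 0 d, 0.923 and 0.922 in 14 d replicates 1 and 3, and 0.471 in 14 d replicate 2. That last library therefore weighs more in a fold change than its share of counts alone would give it. Values are relative within a library, so fewer vesicles that carry a tag and less of it per vesicle cannot be told apart.

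The tags as a set took up a larger mean share of the counts at 14 d than at 0 d, and with 1 sequence, tag 1, left out they did not. They held 2.12%, 0.260% and 2.15% of the counts in 0 d replicates 1, 2 and 3, and 3.30%, 8.27% and 7.62% in 14 d replicates 1, 2 and 3. Every 14 d library was above every 0 d library, and 0 d replicate 2 lay far under the other 0 d libraries. The means were 1.51% ± 1.08 (SD, n = 3) and 6.40% ± 2.70 (SD, n = 3), a difference of 4.89 percentage points. A 2-sided exact permutation test gave p = 0.1, the smallest that 3 against 3 libraries allow. The p was 0.2 after Benjamini-Hochberg adjustment over the 6 main tests of this kind. Alternative settings of these tests were not part of that adjustment, and their permutation p-values are given unadjusted.

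Without tag 1 the order of the means turned round. The shares were then 2.11%, 0.250% and 2.08% at 0 d and 0.446%, 1.26% and 0.949% at 14 d. The groups overlapped, with means of 1.48% ± 1.06 and 0.885% ± 0.410 (SD, n = 3 each), and the difference of -0.59 points was within the spread between libraries (exact permutation p = 0.4, adjusted 0.4). That direction is not stable: the difference was 0.373 points when miR-21-5p, an abundant annotated miRNA, was taken out of the totals, and 2.52 points when a sequence with several names was counted once for each name. With tags 1 and 2 both left out, a comparison added after the values were seen, the other 74 tags held 0.270%, 0.0634% and 0.366% at 0 d and 0.446%, 1.26% and 0.949% at 14 d. Those groups did not overlap, at means of 0.233% ± 0.155 and 0.884% ± 0.408 (exact permutation p = 0.1). Most of the 14 d counts of these 74 tags belonged to tags 3 and 4, with 168, 451 and 305 of 265, 854 and 520. At 0 d tags 3 and 4 held 15, 26 and 8 of 404, 104 and 434 counts. The comparison was not run without them and does not speak for the tags beyond that pair.

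**Figure D1:**
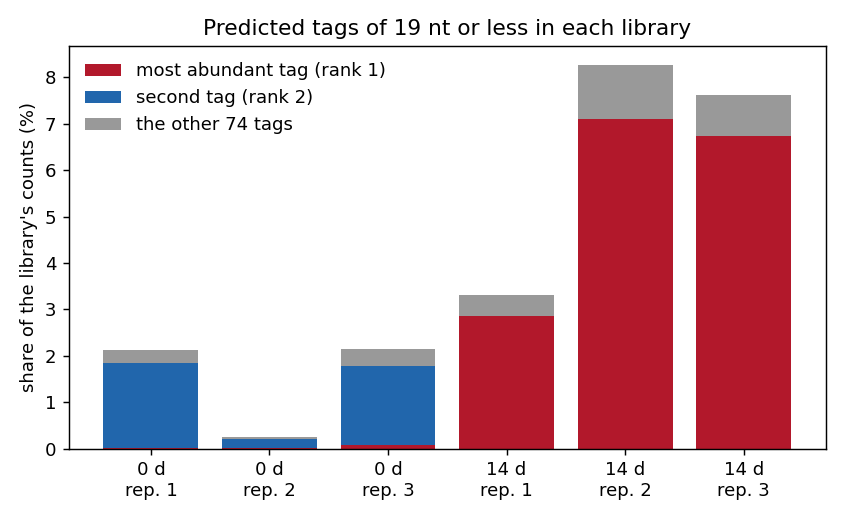
Share of each library's counts in percent held by the predicted tags of 19 nt or less, as stacked bars for tag 1, tag 2 and the other 74 tags in each of the 6 libraries. Tag 2 fills most of each 0 d bar and tag 1 most of each 14 d bar, where the bars reach 3.30% to 8.27%.

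Within the set, most counts belonged to 1 tag in each group, and not the same one. Tag 1 held 86.9%, 85.9% and 88.4% of the set's counts at 14 d against 0.403%, 3.75% and 3.43% at 0 d. Tag 2 held 87.1%, 71.9% and 79.8% at 0 d, and at 14 d it was 0.0330% in replicate 2 and not listed in replicates 1 and 3. The remaining 74 tags together made up 12.5%, 24.4% and 16.7% at 0 d and 13.1%, 14.1% and 11.6% at 14 d.

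Tag 1 had 13, 16 and 89 counts at 0 d against 1753, 5197 and 3955 at 14 d. It stood at position 144, 132 and 58 among all sequences of the 0 d libraries and at position 3, 2 and 2 in those of the 14 d group. On average it took 0.0307% ± 0.0373 of a 0 d library and 5.57% ± 2.34 of a 14 d library (SD, n = 3 each), and the groups were far apart. The TMM-scaled log2 fold change, 14 d over 0 d, was 8.58 ± 1.25 (SE) with an adjusted p of 0.00204 in edgeR's quasi-likelihood test, which was fitted on all 119 sequences that passed the filter on low counts and adjusted over them. Without 14 d replicate 2 the log2 fold change was 7.87, without 0 d replicate 3 it was 10.25, and with scaling by total counts alone it was 7.52.

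Tag 2 went the other way, with 2810, 307 and 2072 counts at 0 d and 0, 2 and 0 at 14 d. It was the 10th most abundant sequence in 0 d replicates 1 and 3 and the 34th in replicate 2, at a mean share of 1.25% ± 0.922 (SD, n = 3). The TMM-scaled ratio of 0 d to 14 d was 635, with an exact 95% interval of 176 to 5244 that covers counting error only, and edgeR's adjusted p was 0.00268. All 14 d counts of tag 2 came from replicate 2. Leaving out 14 d replicate 1 or 3 gave a ratio of 388 or 398, and leaving out 0 d replicate 2 gave 953. Without 14 d replicate 2 no 14 d count was left and no ratio can be given, so the 635 rests on 2 counts in 1 library. The log2 fold change, 14 d over 0 d, was -9.20 ± 1.42 (SE) in edgeR. It was -10.1 with total counts alone and -13.3 without 14 d replicate 2.

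Tag 5 resembles tag 2, a likeness seen after the values were known: over the first 17 bases they differ by G7C and A12G, with positions counted from 1 at the 5′ end and tag 2's base first. Tag 5 had 241, 21 and 286 counts at 0 d and none at 14 d, so that 0 d replicate 2 was the lowest 0 d library for tag 2 and for tag 5. At 0 d it was 15.3-fold above a floor of 3 counts per 14 d library (edgeR adjusted p = 0.0119). That value became 9.77-fold without 0 d replicate 3 and 28.9-fold with total counts alone. Without 0 d replicate 1 or 3 this tag no longer passed the filter on low counts and was not tested.

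**Figure D2:**
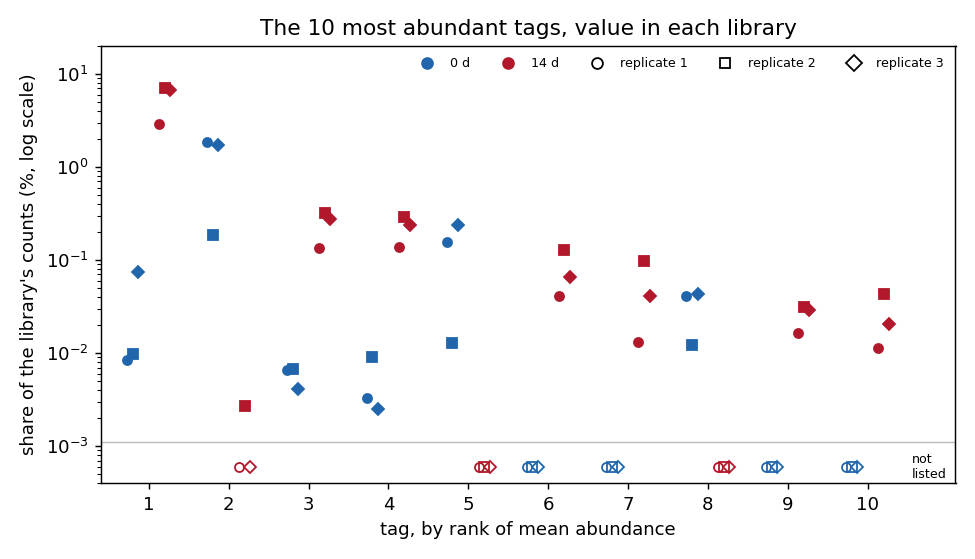
Share of each library's counts in percent, on a log scale, for tags 1 to 10; each point is 1 library, with 0 d in blue, 14 d in red, a shape for each replicate and open points under the line for libraries that do not list the tag. Tags 3, 4, 6, 7, 9 and 10 lie with tag 1 in being higher at 14 d, and tags 2, 5 and 8 are higher at 0 d.

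Tags 3 and 4 are near-identical: they have the same length and differ at the first base alone (G1A, tag 3's base first). Tag 3 carries 8 names on chromosomes 1, 3, 4, 5, 6 and 8, and tag 4 carries 7 names on chromosomes 1, 2, 7, 9, 10 and 11, the most copies of any tag here. The table repeats the full count under each name, so reads from the different places cannot be told apart. In capitals is the run shared with rno-miR-3473, a rat miRNA of the RefSeq annotation (GRCr8) that the deposited counts do not list.
Tag 3: gGGGCUGGAGAGAUGGC
Tag 4: AGGGCUGGAGAGAUGGC
rno-miR-3473: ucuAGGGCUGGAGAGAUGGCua
All 17 bases of tag 4 lie inside that miRNA, and 16 of tag 3. Their own seeds are not that miRNA's, because tag 4 starts at its base 4.

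The pair rose together. Tag 3 had 10, 11 and 5 counts at 0 d and 83, 236 and 164 at 14 d. Tag 4 had 5, 15 and 3 counts at 0 d and 85, 215 and 141 at 14 d. In both, the lowest 14 d library was above the highest 0 d library. The log2 fold changes were 6.42 ± 0.75 (SE, edgeR adjusted p = 0.0013) for tag 3 and 6.48 ± 0.84 (adjusted p = 0.0015) for tag 4, and with total counts alone they were 5.37 and 5.44. Without 14 d replicate 2 they were 5.69 and 5.75. Tag 4's part of the pair's counts was 33.3%, 57.7% and 37.5% at 0 d and 50.6%, 47.7% and 46.2% at 14 d. The widest exact 95% interval was 8.52% to 75.5%, on the 8 counts of 0 d replicate 3, and the narrowest was 43.0% to 52.4%, in 14 d replicate 2.

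The sequence of the pair also occurs in RefSeq promoter windows, which cover the stretch around a gene's start. On either strand, the DNA form of tag 3 was found in 39 of 33469 windows (0.117%), that of tag 4 in 24 (0.0717%), and their common run of 16 bases in 85 (0.254%). Of the other 74 tags, only 4 had a match in any window, with 1 or 2 windows each. A match in these windows is a description of the letters and says nothing of where the RNA came from.

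The remaining abundant tags of the 14 d group were listed in all 3 libraries of that group and in no 0 d library. Tag 6 had 25, 93 and 39 counts at 14 d, 83.6-fold above the floor of 3 counts per 0 d library (edgeR adjusted p = 0.00331). Tag 7 had 8, 72 and 24 counts, 57.9-fold above that floor (adjusted p = 0.00665 in edgeR). Tag 9 had 10, 23 and 17 counts, 25.1-fold above it (adjusted p = 0.00521 in edgeR). Tag 10 had 7, 32 and 12 counts, 27.6-fold above it (adjusted p = 0.00671 in edgeR). In each of the 4, replicate 2 was highest and replicate 1 lowest. Without 14 d replicate 2 these folds were 37.8, 19, 16.0 and 11.2, in the order tag 6, 7, 9 and 10. With total counts alone they were 37.3, 24.3, 12.2 and 12.0.

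Tag 8 leads a group of 3 overlapping tags made of G and C alone, which were listed in 0 d libraries and in no 14 d library. The capitals mark the 14 bases that all 3 hold.
Tag 8: cGCGGGCGGGGCCGGggg
Tag 21: GCGGGCGGGGCCGGggg
Tag 44: cgcGCGGGCGGGGCCGG
Tag 8 had 63, 20 and 52 counts at 0 d, 3.63-fold higher than the 14 d floor (edgeR adjusted p = 0.0141) or 6.84-fold with total counts alone. It was not tested without 0 d replicate 1 or 3. Tag 21 had 10, 0 and 16 counts and tag 44 had 2, 0 and 5, and neither passed the filter. They overlap a longer predicted tag of 22 nt, ggggCGCGCGGGCGGGGCCGGg, whose capitals are tag 44, and which had 1084, 942 and 598 counts at 0 d and none at 14 d. That longer tag shares 16 bases with tag 8 and 15 with tag 21. A 4th tag without A or U, cGGCGGCGggcgcgggg (seed in capitals), carries 3 names on chromosomes 4 and 14 and had 3, 0 and 6 counts at 0 d and none at 14 d.

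Another group of overlapping tags was listed in 14 d replicates 2 and 3 alone. Its members share their first 15 bases, in capitals, and so their seed.
Tag 12: GGGGGUGUAGCUCAGugc
Tag 24: GGGGGUGUAGCUCAGcgg
Tag 29: GGGGGUGUAGCUCAGggg
From tag 12, tag 24 differs by U16C and C18G, and tag 29 by U16G and C18G. Tag 12 had 20 and 10 counts in 14 d replicates 2 and 3, tag 24 had 6 and 4, and tag 29 had 4 and 3. Tag 12 carries 2 names on chromosomes 5 and 8, tag 24 carries 2 on chromosomes 8 and 10, and tag 29 carries 1 on chromosome 4. Other sequences hold 8 or more bases of the same run, a feature looked up after the values were seen. The short tags ggggacGUAGCUCAauugg and gggucUGUAGCUCAGucgg, with the shared bases in capitals, had 8 and 4 counts in 0 d replicate 1 and none in any other library. The longer predicted tag ggggaUGUAGCUCAGugguaga had 116, 53 and 63 counts at 0 d and 0, 0 and 4 at 14 d, and GGGGGUGUAucucagugguaga had 12 in 0 d replicate 1 alone. The annotated miR-143-3p, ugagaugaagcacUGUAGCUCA, shares 9 bases and was listed in both groups, with 362, 262 and 100 counts at 0 d and 351, 165 and 262 at 14 d.

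The last near-identical pair, AGGAGAAGCUGGAGAagg and AGGAGAAGCUGGAGAugc, shares its first 15 bases and differs by A16U and G18C. The former had 3 counts in 14 d replicate 3, and the latter, with 3 names on chromosomes 1, 15 and X, had 3 in 14 d replicate 2. By the same rule (containment, at most 1 mismatch at equal length, or a shared run of at least 15 bases) 66 of the 76 tags had no near-identical partner.

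Several names were carried by 10 of the 76 tags, 33 names in all. Besides those given above, these were gGGUCUGUagcucagucgg with 2 names on chromosome 3, aGGGACAGuggggaagg with 2 on chromosomes 15 and 17, aGCGGAGGcagagaggc with 2 on chromosome 12, and cGUGGGGUgacuugucu with 2 on chromosome 1, each shown with its seed in capitals. The last had 2 and 3 counts in 0 d replicates 1 and 3. The tag on chromosomes 15 and 17 had 3 counts and the tag on chromosome 12 had 2, both in 14 d replicate 2.

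Of the 76 tags, the 10 shown first were exactly those that passed the filter on low counts, and all 10 were called at an adjusted p under 0.05 in edgeR. The share called among all 119 sequences tested was 54.6%. Tags 1, 3, 4, 6, 7, 9 and 10 were the 7 called higher at 14 d, where 26.1% of all tested sequences were, and tags 2, 5 and 8 the 3 called lower, where 28.6% were. The libraries of the groups did not overlap in any of the 10 tags, nor in 78.2% of all tested sequences. The filter asks for a minimum level in 3 libraries, and all 10 tags reached it in the 3 libraries of the group where they were high. In the other group tag 1 reached it in 1 library and the rest in none. Among the tags, passing the filter therefore went with a difference, so these counts and the adjusted p-values above describe the 10 tags, support nothing about the set and do not speak for the other 66. Without the filter, 15 of the 76 tags were called, 12 of them higher, against 15.6% of all 417 sequences. The 5 added were aAAAGGCUguggugucc, aAGGAGCUcuggugugcc, aAGGAGGCcgaggcagg, tag 12 and uUGGAUGUcugagugac, each listed at 14 d alone with 22 to 38 counts in all. Without 0 d replicate 1 or without 0 d replicate 3, 1 tag was called lower, and without 14 d replicate 1, 12 were called higher. Among all sequences tested in those fits, 29 of 116 and 32 of 117 were called lower, and 39 of 146 higher.

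The untested 66 tags had 2 to 38 counts each over all libraries. Of these, 27 were listed at 0 d alone, 37 at 14 d alone and 2 in both groups. The first of those 2, aAGGAUGAggaguugaccc, had 6, 0 and 0 counts at 0 d and 6, 7 and 7 at 14 d, a TMM-scaled ratio of 14 d to 0 d of 13.6 with an exact 95% interval of 5.28 to 41.4 from counting alone. The other, CAGUGCAAUGUUAAAAGGG, had 4, 0 and 0 counts at 0 d and 0, 2 and 2 at 14 d, and its ratio of 4.09 had an interval of 0.761 to 21.9. The second interval holds a ratio of 1. Neither interval can decide whether the groups differ, because both leave out the scatter between libraries. All 0 d counts of both tags came from replicate 1.

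Few tags were seen in both groups. Of the 76, 29 were listed at 0 d alone, with 883 counts together, 41 at 14 d alone, with 691 counts, and 6 in both, with 17221 counts or 91.6% of the total. Only tags 1, 3 and 4 were listed in all 6 libraries. The share listed in both groups was 7.89%, beside 8.06% of the 124 longer predicted tags and 62.7% of the 217 annotated miRNAs. Of the longer predicted tags, 97 were listed at 0 d alone and 17 at 14 d alone. A count of 52 tags had 10 counts or fewer over all libraries, the median was 7, and 37 were listed in 1 library alone, 20 of them in the 0 d group and 17 in the 14 d group. The smallest listed count in the table was 2, so a blank may hide a single count.

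The 0 d libraries listed 25, 12 and 18 of the tags, and those of 14 d listed 17, 39 and 33. The groups overlapped, at 18.3 ± 6.51 and 29.7 ± 11.4 (SD, n = 3 each; exact permutation p = 0.3, adjusted 0.36). The 0 d libraries held more counts, so every library was also thinned to the lowest total of 58730 counts, which left an expected 14.6, 9.76 and 14.7 tags at 0 d and 16.7, 35.2 and 33.0 at 14 d. At that equal depth the groups did not overlap, at 13 ± 2.82 and 28.3 ± 10.1, and the exact permutation p was 0.1. Of tags with 10 or more counts, each 0 d library listed 7, and the 14 d libraries listed 7, 11 and 9. Tags listed in a single library numbered 10, 4 and 6 at 0 d against 1, 11 and 5 at 14 d.

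**Figure D3:**
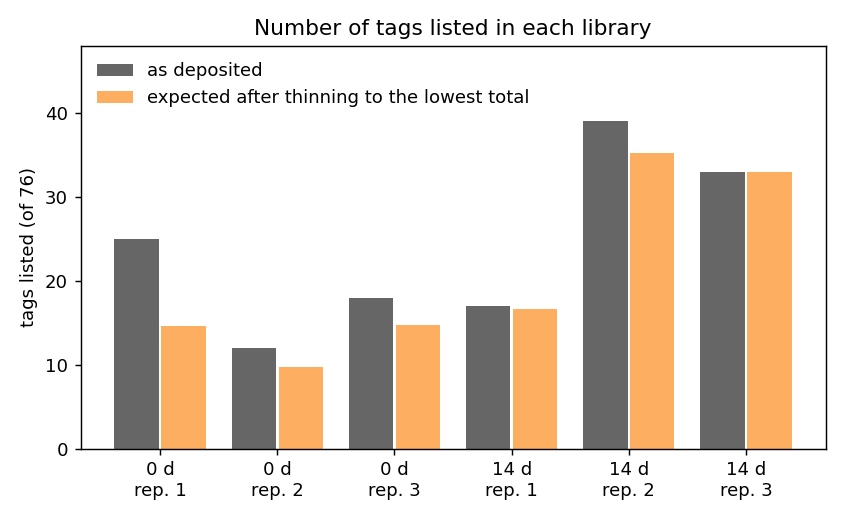
Number of the 76 tags listed in each library as deposited, beside the number expected with a count of at least 2 once each library is thinned to the lowest total. Thinning lowers 0 d replicate 1 from 25 to 14.6 and 14 d replicate 2 from 39 to 35.2, and all 14 d bars are then above all 0 d bars.

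The tags were rich in G. Their median GC content was 60.0%, beside 54.5% for longer predicted tags and 47.6% for annotated miRNAs, and their median share of G was 44.4%, beside 38.6% and 23.8%. Their median share of U was 11.8%, beside 18.2% and 27.3%. A run of 4 or more of the same base occurred in 27 of 76 tags (35.5%), in 25.8% of longer predicted tags and in 13.8% of annotated miRNAs. The first base was A in 49 of the 76 (64.5%) and U in 5 (6.58%), whereas U was the first base of 104 of the 217 annotated miRNAs (47.9%), a preference known of miRNAs held by Argonaute. The letters CCA, which mature transfer RNAs carry at their 3′ end, closed 2 of the 76 tags (2.63%). They closed 1.61% of longer predicted tags and 0.922% of annotated miRNAs. Of the 2 short tags, 1 is tag 2, with its 71.9% to 87.1% of the set's counts in the 0 d libraries. The other, uCCCACUUcugacccca, had 4 counts in 0 d replicate 3. Whether either tag comes from a transfer RNA was not tested.

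The first and last bases were counted apart for the tags of each group. Of the 41 tags listed at 14 d alone, 35 began with A (85.4%) and 27 ended with C (65.9%). Of the 29 listed at 0 d alone, 10 began with A (34.5%) and 3 ended with C (10.3%), while 17 ended with G. Among the longer predicted tags, 13 of 17 listed at 14 d alone began with A and 15 of 17 ended with C, against 36 and 24 of 97 at 0 d alone, the same direction as in the short tags. The annotated miRNAs listed at 14 d alone had A first in 5 and C last in 7 of 27, and those at 0 d alone had A first in 18 and C last in 7 of 54.

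The same shares were taken library by library. Among the tags a library listed, A came first in 40%, 66.7% and 38.9% at 0 d and in 82.4%, 82.1% and 75.8% at 14 d. C came last in 28.0%, 33.3% and 22.2% at 0 d and in 70.6%, 66.7% and 66.7% at 14 d. Neither set of values overlapped between groups, and without tag 1 they still did not, at 37.5%, 63.6% and 35.3% against 81.2%, 81.6% and 75.0% for a first A, and 25.0%, 27.3% and 17.6% against 68.8%, 65.8% and 65.6% for a last C. These shares were looked at after the pattern had been seen and carry no test, and libraries of 1 group share many of their tags.

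**Figure D4:**
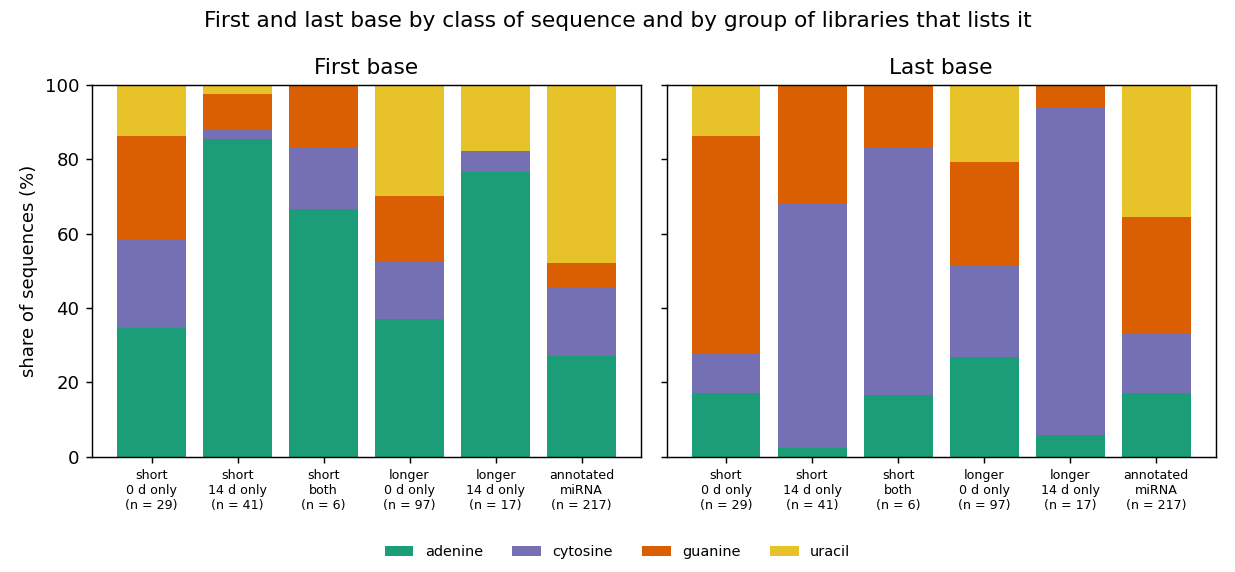
Share of sequences in percent by first base (left) and last base (right) for short predicted tags listed at 0 d alone, at 14 d alone or in both groups, for longer predicted tags listed in 1 group, and for annotated miRNAs; n is the number of sequences. A first base of A reaches 85.4% and a last base of C 65.9% in the short tags of 14 d alone, beside 34.5% and 10.3% in those of 0 d alone.

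Weighted by counts, the mean GC content of the tags was higher at 0 d. It was 62.7%, 63.1% and 63.0% at 0 d against 59.7%, 59.4% and 59.5% at 14 d, with means of 62.9% ± 0.179 and 59.5% ± 0.122 (SD, n = 3 each; exact permutation p = 0.1, adjusted 0.2). Tag 1, at 58.8% GC, held most of the set's counts at 14 d, and tag 2, at 61.1%, most at 0 d. The difference therefore largely restates which tag was abundant and does not describe the tags as a whole. Without tag 1 the count-weighted GC content was 62.7%, 63.2% and 63.1% against 65.1%, 63.1% and 64.1%. The difference of 1.07 points had an exact permutation p of 0.3 (adjusted 0.36). Tag 2 then still held most of the 0 d counts, and tags 3 and 4, at 70.6% and 64.7% GC, most of those at 14 d. With each listed tag given equal weight and tag 1 left out, the difference turned to -6.35 points, with the higher mean at 0 d. All 4 tags made of G and C alone were listed at 0 d alone, and the means were not taken without them. Medians went the other way, at 57.9% for the 29 tags listed at 0 d alone and 61.1% for the 41 at 14 d alone. The unweighted difference therefore does not show that tags of the 0 d group were in general richer in GC.

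Set against the longer predicted tags, the short ones had a higher mean ratio at 14 d with tag 1 and a lower one without it. The log2 ratio of short to longer predicted counts was -0.86, -3.90 and -0.46 at 0 d and -0.24, 1.42 and 0.80 at 14 d. The groups did not overlap, and the difference in means was 2.40 (exact permutation p = 0.1, adjusted 0.2). Without tag 1 the difference was -0.52 with an exact permutation p of 0.7. With tags 1 and 2 both left out it was 1.98 (exact permutation p = 0.2), and without the most abundant longer tag it was 5.34. The last 2 were added after the values were seen.

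Few tags overlapped a known mature miRNA. Of the 692 rat mature sequences in the RefSeq table (GRCr8), a shared run of 13 or more bases was found for tags 3 and 4, described above, and for 3 further tags, shown with the shared bases in capitals beside their match.
Tag 34: CAGUGCAAUGUUAAAAGGG
rno-miR-130a-3p: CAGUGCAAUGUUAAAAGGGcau
Tag 41: AGGUAGUAGGUUGUGUGGa
rno-let-7b-5p: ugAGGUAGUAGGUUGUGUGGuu
Tag 50: aaccgUGGCUCAGUUCAGa
rno-miR-24-3p: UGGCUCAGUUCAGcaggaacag
Tag 34 is miR-130a-3p without its last bases and so has its seed, while the deposited counts do not list the full miRNA. Tag 41 starts at base 3 of let-7b-5p and shares 18 bases with it. It had 7 counts, all in 0 d replicate 3, where let-7b-5p had 12239. Members of the let-7 family, which hold back proliferation in many tissues, have near-identical sequences, and tag 41 shares shorter runs with let-7a-5p, let-7c-5p and let-7d-5p. Tag 50 had 7 counts, all in 0 d replicate 1, where miR-24-3p had 788.

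The 76 tags had 69 different seeds, and 13 tags shared 1 of 6 seeds with another tag. The seeds of 5 tags were also those of an annotated miRNA with counts in the table. They were miR-28-5p for aAGGAGCUcuggugugcc and aAGGAGCUgaggucaacc, miR-320-3p for aAAAGCUGgccaacucc, miR-1839-5p for aAGGUAGAauuccaggug and miR-301a-3p for tag 34. These 5 tags had 2 to 22 counts over all libraries. None of the 10 most abundant tags had the seed of a RefSeq mature miRNA. A shared seed is a match of letters, and no targets were examined.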

How the data were processed

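Per the labels, total RNA was extracted with Trizol and small RNA libraries were made with a kit. Per the submitters' processing notes, Novoalign 3.02.12, cutadapt 1.9.3 and build rn6 were used, in roles not stated. No source used here gives the counting tool, the version of the miRNA annotation or the prediction program. Per the file headers, the authors deposited raw tag counts per mature miRNA in 483 lines for 453 names, and a second table of normalized values. Those deposited normalized values are treated as a score, because their method is not stated, and were used only as an alternative. In each library, 95.5% to 100% of them lay close to the raw count times a single factor. The alternatives on these values therefore largely rescale the same counts.

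From the counts, 1 line was kept per sequence (417) and 1563 blank cells were set to 0. Sequences were tested with edgeR 4.0.16 in R 4.3.3 (quasi-likelihood F test, TMM factors, filterByExpr with a minimum count of 10 and a minimum total of 15), with Benjamini-Hochberg adjustment over the 119 sequences kept and a call at an adjusted p under 0.05. The fit held all 6 libraries and the group alone, and the script was tested on simulated data. Single values per library were compared with 2-sided exact permutation tests (scipy 1.17.1). Folds against an unlisted group are the observed scaled mean of the listed group over a set floor of 3 counts per library. They do not include the counting error of that mean and are not lower limits. Intervals cover counting error only, as no molecular identifiers are stated. No upper limit is given for a blank, since the table lists no count under 2.

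Alternatives were RLE, upper-quartile and total-count scaling, DESeq2 1.42.0, limma 3.58.1 on the authors' values, other filters, 1 line per name, a replicate block, and each library left out. Full values are given for the 10 tags with the highest mean share of counts and for any kept by the filter; tags with a near-identical partner, several names or a known miRNA match are named, and all others are given by counts and ranges unless said. The tags, lists and tests were chosen with earlier results of these data known.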

Additional observations from a re-analysis of the deposited data

How the results depend on the processing

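Over the alternatives run, the fold changes of the 10 tested tags kept their direction and their call in all 169 values, 1 for each tag and alternative that tested it. Alternatives in which a tag was not tested are not among the 169. All 10 tags had passed the filter through the group where they were high, so a kept direction was largely set beforehand and lends no support. The number of tags called was 5 under a stricter filter (minimum count 30), with 4 higher and 1 lower, because fewer tags were tested. Of all 85 sequences tested there, 70.6% were called. Calls higher at 14 d numbered 12 without a filter and 11 in limma on the authors' normalized values without a filter, where all 76 tags were tested. Of all 417 sequences, 32 and 23 were called higher in these fits. Leaving out each library in turn gave 10 to 15 tags called of 10 to 16 tested, 7 to 12 higher and 1 to 3 lower. Of all sequences tested in those fits, 36.8% to 58.0% were called, with 23 to 39 sequences higher and 24 to 34 lower. Differences between group means, 14 d minus 0 d, then ranged from 3.95 to 6.43 percentage points for the share of counts, from -1.21 to -0.279 points for that share without tag 1, from 6.67 to 17.7 tags for the number listed, from -3.51 to -3.34 points for count-weighted GC content, from 0.578 to 1.57 points for that without tag 1, and from 1.32 to 3.04 for the log2 ratio of short to longer predicted counts. Signs turned in 4 cases. The share without tag 1 was 0.373 points higher at 14 d with miR-21-5p out of the totals and 2.52 points higher with every line counted. GC content without tag 1 differed by -6.35 points when unweighted, and the log2 ratio was -0.52 without tag 1. The cause was not tested in these cases. The median log2 fold change of all tested sequences was 0.26, and it was 0.03 with upper-quartile factors, -0.53 with total counts alone and -0.29 with the authors' values. The last 2 split all calls into 18 higher and 46 lower or 20 and 44, in place of 31 and 34; the tags stayed at 7 and 3. Replicate numbers are shared between groups, but libraries with the same number did not deviate together in every pair (correlations of -0.0161, 0.0406 and 0.167), so the numbers were not taken as pairs. A replicate block left 62 of 119 sequences called and 10 tags called, 7 higher and 3 lower. In the main fit, at 58730 to 164424 counts per library, no tag with fewer than 50 counts in all passed the filter. That limit did not hold in every fit with a library left out: without 14 d replicate 1, tags with 15 and 38 counts in all were among those that passed.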
